A study of Mus musculus with 18 samples.

Results

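A set of 10 genes that mark epithelial cells and the lining of bile ducts and gut were followed through liver metastases of a mouse colorectal cancer line. The genes were taken by symbol from both deposited gene tables: the keratins Krt8, Krt18, Krt7, Krt19 and Krt20, the adhesion genes Epcam, Cdh1 and Cldn7, the transcription factor Sox9 and the galectin Lgals4. These are 10 of the 25003 gene symbols in the 2 tables. All 10 had a row in the table of LFD and HFD, which held 22137 genes. The table of shCon and shYap, with 24778 genes, held 9 of them; Krt20 had no row there and was not analysed in that table.

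Tumours grew from MC38, a mouse colon carcinoma line, after cells were injected into the spleen, from which they reach the liver through the portal blood. LFD (n = 5) and HFD (n = 5) were tumours of wild-type mice (genotype label WT) fed a low-fat or a high-fat diet. Tumours shCon (n = 4) and shYap (n = 4) both came from mice that the titles also call WT and that were fed the high-fat diet, the first with a control hairpin (genotype label shControl) and the other with a hairpin against Yap, the co-activator of the Hippo pathway. Total RNA of whole tumour tissue was sequenced, so each library also holds RNA of liver and stromal cells that were taken with the tumour. No label gave the age or sex of the mice or tied a library to an animal of its own. The p-values therefore measure only the spread between these samples.

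Keratins build the intermediate filaments of epithelial cells as obligate pairs of a type II and a type I chain, and an unpaired chain is degraded. Krt8 and Krt18 form the pair of simple epithelia and are the main keratins of hepatocytes. Cholangiocytes, the cells of the bile ducts, add Krt7 and Krt19, and the differentiated intestinal lining adds Krt20. Epcam, E-cadherin (Cdh1) and claudin 7 (Cldn7) hold epithelial cells together, Sox9 is a transcription factor of cholangiocytes and of intestinal crypts, and Lgals4 is a galectin of the intestinal lining.

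Levels are given in CPM, counts relative to a common library total, scaled within each table by the trimmed mean of M-values (TMM), so values of the 2 tables were not tested against each other. Libraries held 17766207 to 18474191 estimated counts in LFD and HFD and 17207214 to 21309950 in shCon and shYap. A count of 0 allowed up to 3 counts, or 0.163 CPM on average in the first table and 0.151 CPM in the other, for counting error only. Yap1, the gene the hairpin targets, lay at 73.8 to 82.4 CPM in shCon and at 70.5 to 81.4 CPM in the libraries labelled shYap, and these ranges overlapped. Xist, the RNA that coats the silenced X of female cells, lay at 72.9 to 135 CPM in LFD and at 0.0505 to 0.293 CPM in HFD, so diet and the sex-linked RNA of the tissue cannot be told apart. The closest HFD libraries were replicates 1 and 2 and replicates 3 and 4, at a chi-square per degree of freedom of 6.12 and 5.09, while all remaining HFD pairs had 10.99 to 26.9.

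Only part of the epithelial and biliary set was present at more than a trace. Over all libraries the highest value was 6.60 CPM for Krt19, 3.18 CPM for Krt7, 2.42 CPM for Epcam, 1.03 CPM for Cldn7 and 0.489 CPM for Krt20. The keratins of bile duct and intestinal lining, Epcam and Cldn7 were thus low in every group, although Krt19 in HFD (32 to 135 counts) was well above the limit of detection. Krt8, Krt18, Sox9, Cdh1 and Lgals4 carried most of the signal, and the genes are described here one by one and not as a biliary identity.

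**Figure D1:**
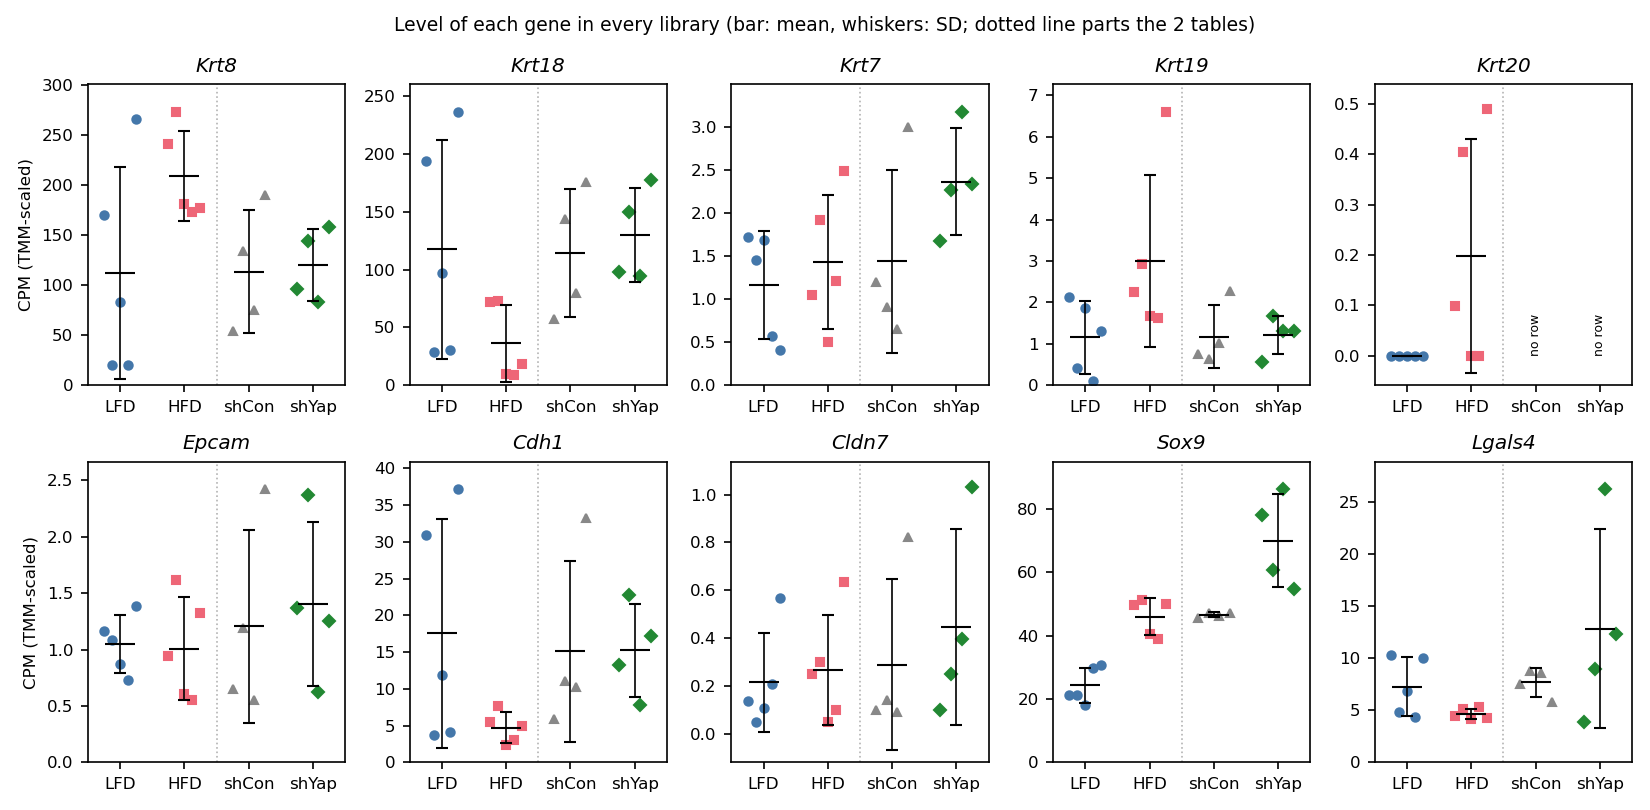
CPM of each of the 10 genes (vertical axes, 1 scale per gene) in every library of LFD, HFD, shCon and shYap; points are libraries, the bar is the mean and the whiskers are the SD. Krt8 and Krt18 reach over 200 CPM, Krt20 is listed at 0 in all LFD libraries, and the HFD values of Sox9 lie above those of LFD.

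Per kilobase of merged exon, the scale on which levels of different genes can be set side by side, Krt18 led in LFD with a mean of 81.8 CPM per kilobase and Krt8 followed with 57.3, SDs of 65.9 and 54.2. Below them in LFD came Sox9 (5.87 ± 1.37), Cdh1 (3.84 ± 3.40) and Lgals4 (3.14 ± 1.21; mean CPM per kilobase ± SD, n = 5), and the spread of Cdh1 overlapped those of both others. Krt19 (0.626 CPM per kilobase), Epcam (0.478), Krt7 (0.166) and Cldn7 (0.111) were each below 1 in the LFD mean. The SDs of Krt19 (0.475) and Epcam (0.116) overlapped, as did those of Krt7 (0.0892) and Cldn7 (0.106), while Epcam and Krt7 differed by more than their SDs. In HFD the keratin order was turned, with Krt8 at 107 ± 23.2 and Krt18 at 25.1 ± 23.1 CPM per kilobase (SD, n = 5). Sox9 followed in HFD at 11.1 ± 1.41 CPM per kilobase, then Lgals4 at 2.01 ± 0.217 and Krt19 at 1.62 ± 1.12. In shCon and shYap, Krt18 again led (79.5 ± 38.4 and 90.5 ± 28.2 CPM per kilobase, SD, n = 4 each) over Krt8 (58.0 ± 31.5 and 61.5 ± 18.5), and did so in each of these 8 libraries. The annotated exons of Krt7 run to 7049 bases and share 50-base runs with 162 other genes, so its level per kilobase is uncertain.

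The pair Krt8 and Krt18 lies on chromosome 15 of the mouse build GRCm38, Krt8 at 101996698 to 102004482 on the minus strand and Krt18 at 102028180 to 102032027 on the plus strand. The genes point away from each other across 23697 bases with no annotated gene between them. The bases upstream of each start are shown because the ratio of these neighbours lay on one side of 1 in 3 of the 4 groups and on the other side in HFD. They were taken from the RefSeq promoter windows of GRCm38.p6, as far as these lie outside the GENCODE M21 transcripts, at chr15:102004483-102004592 for Krt8 and chr15:102027966-102028179 for Krt18, each 5′ to 3′ on the strand of its gene. Capitals mark the E-box CAGGTG, read as CACCTG on this strand, to which Snail and Zeb repressors can bind.
Krt8: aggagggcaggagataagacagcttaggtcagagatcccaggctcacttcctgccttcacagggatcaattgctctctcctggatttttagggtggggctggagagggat
Krt18: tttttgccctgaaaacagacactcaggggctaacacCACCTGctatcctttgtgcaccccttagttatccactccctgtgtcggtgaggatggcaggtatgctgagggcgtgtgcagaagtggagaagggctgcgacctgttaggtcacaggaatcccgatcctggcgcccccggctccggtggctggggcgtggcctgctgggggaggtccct
Both full windows of 300 bases held 1 match to CAGGTG on either strand, in Krt8 at position -111 from the RefSeq start and outside the printed stretch. The same letters occurred in 20.3% of the 32544 promoter windows searched, so a match is a description of the sequence. RefSeq windows matched 7 of the 10 genes.

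Krt8 also has a near copy in the genome. The processed pseudogene Krt8-ps on chromosome 7 (23357125 to 23358069, plus strand, inside the span of Nlrp4e) matched the Krt8 transcript at 98.6% of 941 aligned bases. It shared 26.9% of the 50-base runs of Krt8, so reads from that stretch could be assigned to either. The coding stretch with most differences is shown, since only reads that cross such positions tell the copies apart. Capitals mark the 4 differing bases in 60, at transcript positions 1109 to 1168 of Krt8 and at chr7:23357990-23358049 for Krt8-ps.
Krt8: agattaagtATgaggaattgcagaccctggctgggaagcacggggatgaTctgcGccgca
Krt8-ps: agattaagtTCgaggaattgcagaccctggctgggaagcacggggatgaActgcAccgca
In the deposited counts Krt8-ps took 9.37% to 17.2% of the sum of both in the 18 libraries. Krt8-ps lay at 16.8 ± 16.1 CPM in LFD and 32.9 ± 5.96 CPM in HFD (SD, n = 5 each), in the same direction as Krt8. With both counts added before the fit, the log2 fold change of Krt8 between HFD and LFD was 0.91 against 0.90 for Krt8 alone.

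In HFD against LFD, 2 of the 8 genes tested changed: Sox9 rose and Cdh1 fell. Krt20 and Cldn7 had too few counts for the fit. The background was high, since 41.1% of all 16340 genes tested passed an adjusted p under 0.05 (edgeR's quasi-likelihood test with Benjamini-Hochberg adjustment), 19.4% as higher and 21.6% as lower. These were 3178 and 3532 genes, and 4076 and 2216 on library totals without scaling factors. The share of 2 in 8 is thus no larger than that over all genes.

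**Figure D2:**
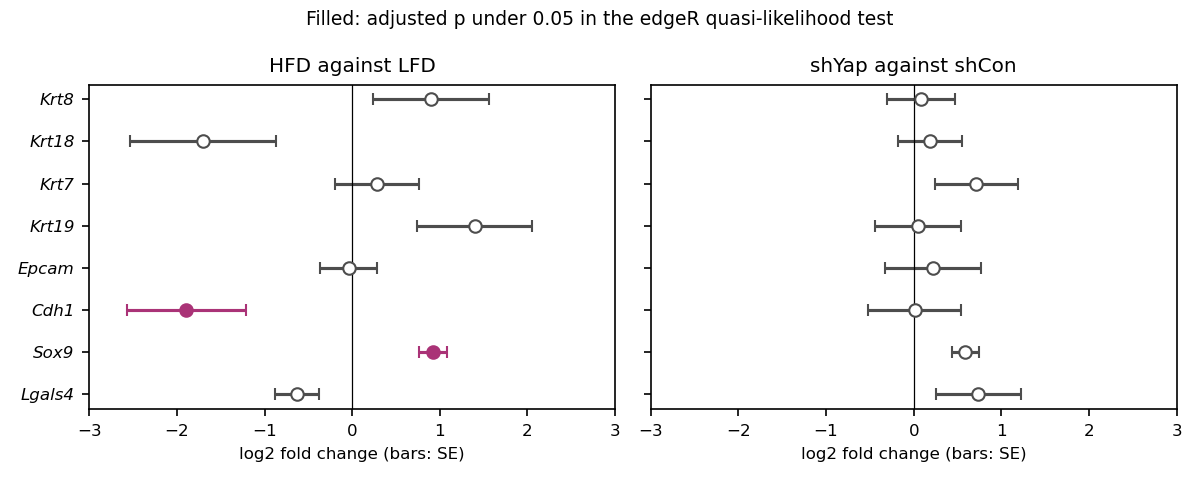
log2 fold change of the 8 genes with enough counts (horizontal axes; whiskers are the SE) for HFD against LFD on the left and shYap against shCon on the right; filled points have an adjusted p under 0.05 in edgeR. Sox9 (0.92) and Cdh1 (-1.89) are filled on the left, and no point is filled on the right.

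Sox9 stood at 21.4, 21.2, 18.1, 29.7 and 30.8 CPM in LFD replicates 1 to 5. The HFD libraries held 49.5, 51.3, 40.6, 38.8 and 49.8 CPM. Every HFD library lay above every LFD library. Such a gap between groups was seen for 1 of the 8 genes, against 30.6% of all genes tested (15.8% higher in HFD and 14.8% lower). The log2 fold change was 0.92 ± 0.16 (SE), from 24.3 ± 5.65 to 46.0 ± 5.81 CPM (SD, n = 5 each), with an adjusted p = 0.00182 in edgeR's quasi-likelihood test. Sox9 passed under each of the 21 alternatives run for this comparison, with log2 fold changes of 0.84 to 1.29.

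Cdh1, the cadherin of epithelial adherens junctions, was at 30.9, 3.73, 11.9, 4.08 and 37.2 CPM in LFD replicates 1 to 5. HFD libraries had 5.48, 7.68, 2.37, 3.07 and 4.94 CPM. LFD replicates 1, 3 and 5 lay above all HFD libraries and LFD replicates 2 and 4 among them, so the groups overlapped. Its log2 fold change was -1.89 ± 0.68 (SE), from 17.6 ± 15.6 to 4.71 ± 2.10 CPM (SD, n = 5 each), at an adjusted p = 0.0481 in edgeR's quasi-likelihood test. Of the fits that left out 1 library, only those without LFD replicate 2 or LFD replicate 4 kept Cdh1 past the threshold; without LFD replicates 1, 3 or 5 or any 1 of the HFD libraries the adjusted p of this test rose to at most 0.117. Cdh1 also missed the threshold with upper-quartile or no scaling, with no filter, in limma voom, with the replicate number as a block and with the closest HFD libraries summed (adjusted p of 0.0505 to 0.197).

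Krt18, the type I chain, was at 194, 28.5, 97.4, 30.8 and 236 CPM in LFD replicates 1 to 5. In HFD it was at 71.6, 73.0, 9.27, 8.60 and 17.9 CPM. The groups overlapped, with HFD replicates 1 and 2 above LFD replicates 2 and 4, and HFD replicates 3 to 5 below all LFD libraries. The log2 fold change of -1.70 ± 0.83 (SE) did not pass (adjusted p = 0.127 in edgeR's quasi-likelihood test), but passed in DESeq2 (adjusted p = 0.0425).

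Krt8, its type II partner, was at 170, 20.5, 83.7, 19.8 and 267 CPM in LFD replicates 1 to 5. In HFD it was at 241, 274, 181, 174 and 177 CPM. LFD spanned a range of 13.4-fold and HFD only 1.58-fold, and every HFD library lay above all LFD libraries but replicate 5. Its fold change on the log2 scale was 0.90 ± 0.66 (SE) with an adjusted p = 0.301 in edgeR's quasi-likelihood test.

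The partners thus kept no fixed proportion across the diets. The ratio of Krt8 to Krt18, both as CPM per kilobase, was 0.643, 0.529, 0.630, 0.472 and 0.828 in LFD replicates 1 to 5. In HFD the ratio was 2.48, 2.75, 14.3, 14.8 and 7.27. All HFD ratios were above 1 and all LFD ratios below it, and the ratio was highest in HFD replicates 3 and 4, where Krt18 was lowest. In shCon the ratio was 0.693, 0.685, 0.695 and 0.796, and in shYap 0.720, 0.705, 0.644 and 0.653, although these mice were also fed the high-fat diet. The summed CPM of 12 hepatocyte genes parted the libraries in the same way. It was 610 to 5266 in HFD, against 11610 to 107317 in LFD, 11507 to 43146 in shCon and 14485 to 73033 in shYap. A link of the ratio to these sums was not tested. The ratio was singled out after its values were seen and is given with no test. Since mRNA was measured in bulk, fewer cells of a type and less RNA per cell cannot be told apart.

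**Figure D3:**
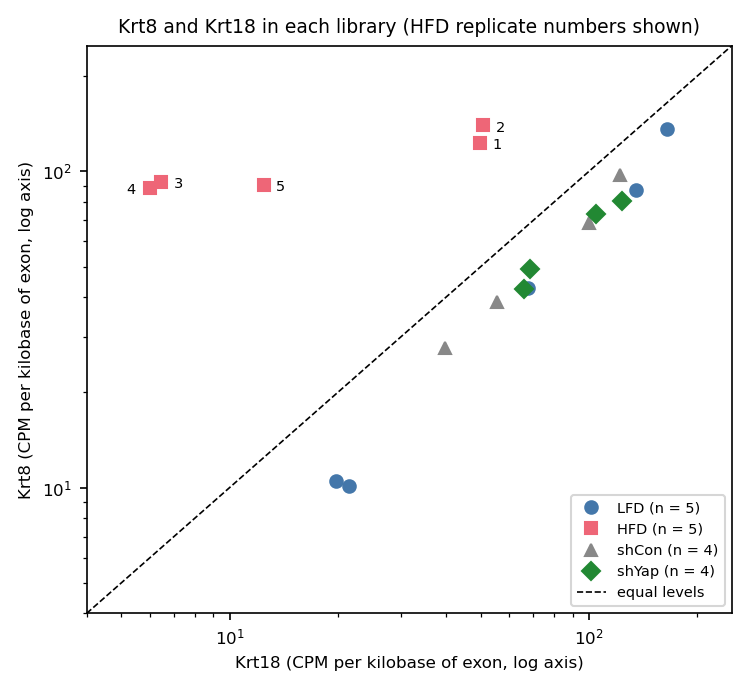
Krt8 against Krt18 in every library, both in CPM per kilobase of exon on log axes; the dashed line marks equal levels and HFD replicates carry their numbers. The LFD, shCon and shYap libraries lie below the line at ratios of 0.472 to 0.828, and the 5 HFD libraries lie above it at ratios of 2.48 to 14.8.

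Within each diet, the libraries with most Krt18 and Cdh1 were also those with most hepatocyte RNA. The 12 hepatocyte genes, led by albumin, summed to 61828, 11610, 25504, 15973 and 107317 CPM in LFD replicates 1 to 5, and to 4625, 5266, 610, 756 and 1089 CPM in HFD. All 12 fell in HFD, against 21.6% of all genes tested, and none was at 0 in a whole group. Albumin itself fell by 4.66 ± 0.99 (SE) on the log2 scale (adjusted p = 0.00509, edgeR's quasi-likelihood test). In LFD, Krt18, Krt8 and Cdh1 were highest in replicate 5, then 1, then 3, in the order of the hepatocyte sum, with replicates 2 and 4 lowest in all. In HFD, Krt18 was likewise highest in replicates 1 and 2. Krt8 was also highest in these replicates, but HFD replicates 3 to 5 still had 174 to 181 CPM of Krt8 at hepatocyte sums of 610 to 1089 CPM, which are below the sum of any LFD library. When the hepatocyte level of each library entered the fit as a covariate, Krt18 turned to 2.86 (adjusted p = 0.00134, edgeR's quasi-likelihood test) and Cdh1 to 2.05 (adjusted p = 0.105), and Krt8 stood at 4.64 (adjusted p = 0.0248). The hepatocyte sums of LFD and HFD did not overlap, so the covariate and the diet cannot be told apart in that fit.

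**Figure D4:**
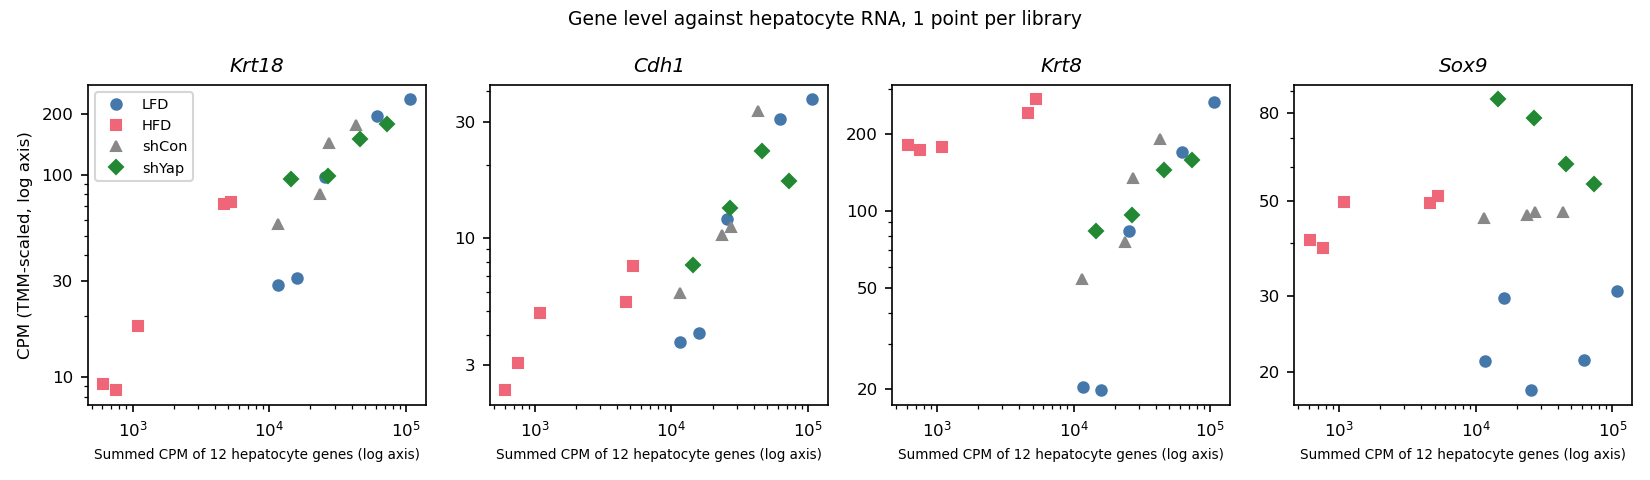
CPM of Krt18, Cdh1, Krt8 and Sox9 (vertical axes, log scale) against the summed CPM of 12 hepatocyte genes (horizontal axes, log scale), 1 point per library, with the 4 groups by colour and shape. Krt18 and Cdh1 are lowest in the HFD libraries with sums of 610 and 756 CPM, whereas Krt8 is above 170 CPM there and Sox9 in HFD lies above all LFD libraries.

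Other cells also carry simple keratins. Of the 8 mesothelial genes 6 were tested, and only Bnc1, a zinc finger factor of mesothelium and squamous epithelium, rose (2.23 ± 0.16 SE, adjusted p = 4.27e-05, edgeR's quasi-likelihood test). Over all genes tested 19.4% rose. The mesothelial sum was 66.7 to 256 CPM in LFD and 227 to 257 CPM in HFD, most of it mesothelin (Msln, 0.82 ± 0.38 SE, adjusted p = 0.110 in the same test). The part of these cells in the keratin values was not tested. Pancreatic acinar genes summed to at most 1.66 CPM in any LFD or HFD library, and 0 of 6 could be tested.

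The ductal keratins were scarce in both diets. Krt19 had 2.13, 0.415, 1.85, 0.105 and 1.30 CPM in LFD replicates 1 to 5. In HFD it had 2.24, 2.93, 1.66, 1.61 and 6.60 CPM. HFD replicate 5 stood apart, and the groups overlapped. The log2 fold change of 1.40 ± 0.66 (SE) did not pass (adjusted p = 0.114, edgeR's quasi-likelihood test). Krt7 ranged from 0.407 to 1.72 CPM in LFD and from 0.504 to 2.49 CPM in HFD (0.28 ± 0.48 SE, adjusted p = 0.668 in the same test). Krt7 and the antisense gene Gm671 overlap by 1269 bases, and without stated strand their reads cannot be told apart.

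Krt20, the keratin of differentiated intestinal cells, had 0 estimated counts in all LFD libraries. The HFD libraries had 2, 8, 0, 0 and 10 counts. It was thus detected in 3 of 5 HFD libraries at no more than 0.489 CPM (two-sided exact permutation test of mean CPM, p = 0.167). Lgals4 had 10.3, 4.87, 6.81, 4.35 and 10.01 CPM in LFD replicates 1 to 5, and 4.49, 5.10, 4.18, 5.28 and 4.25 CPM in HFD. Its groups overlapped, as LFD replicates 2 and 4 lay inside the HFD range. The log2 fold change of -0.63 ± 0.25 (SE) did not pass in edgeR's quasi-likelihood test (adjusted p = 0.0659) but passed in DESeq2 (adjusted p = 0.0399).

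Epcam, an adhesion protein of most simple epithelia that adult hepatocytes lack, had 1.17, 1.09, 0.872, 0.733 and 1.38 CPM in LFD replicates 1 to 5. The HFD libraries had 0.947, 1.62, 0.604, 0.553 and 1.32 CPM. The groups overlapped throughout (-0.04 ± 0.33 SE, adjusted p = 0.933 in edgeR's quasi-likelihood test). Cldn7, a tight junction protein found in complexes with Epcam, had 1 to 7 counts in LFD and 1 to 13 in HFD (two-sided exact permutation test of mean CPM, p = 0.643).

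In shYap against shCon, 0 of the 8 genes tested passed, and 0% of the 16571 genes tested did so in edgeR's quasi-likelihood test with Benjamini-Hochberg adjustment. At an unadjusted p under 0.05 there were 1804 genes, 1 of the 8 among them; DESeq2 called 410 genes and limma voom 0. The 1 gene was Sox9.

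Across shCon replicates 1 to 4, Sox9 had 45.5, 47.1, 46.2 and 47.2 CPM. The libraries labelled shYap had 77.9, 60.8, 86.2 and 54.7 CPM. Each was above all shCon libraries. This was the 1 gene of the 8 with such a gap, against 6.57% of all genes tested (2.61% higher in shYap and 3.96% lower). The shCon libraries lay within 1.04-fold of each other, and the shYap libraries spread over 1.57-fold. The log2 fold change was 0.59 ± 0.15 (SE), from 46.5 ± 0.788 to 69.9 ± 14.6 CPM (SD, n = 4 each), with an unadjusted p = 0.00382 and an adjusted p = 0.208 in edgeR's quasi-likelihood test. Of the 18 alternatives run for this comparison only DESeq2 called it (adjusted p = 0.0461). Within shYap, Sox9 was highest in replicates 3 and 1, which had the lowest hepatocyte sums (14485 and 26692 CPM), and lowest in replicate 4, which had the highest (73033 CPM). The other groups did not show this order. In shCon, Sox9 stayed at 45.5 to 47.2 CPM over hepatocyte sums of 11507 to 43146 CPM. In LFD and HFD it was highest in replicates 5 and 2, which had the highest sums of their groups (107317 and 5266 CPM). The link was not tested.

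The keratin pair did not separate the hairpin groups. Krt8 was at 54.0, 134, 75.6 and 191 CPM in shCon and at 96.4, 144, 83.1 and 158 CPM in shYap (0.08 ± 0.39 SE). Krt18 was at 57.1, 144, 79.9 and 176 CPM in shCon and at 98.2, 150, 94.7 and 177 CPM in shYap (0.19 ± 0.36 SE). In both groups the libraries with most Krt18 were replicates 4 and 2, which also had the highest hepatocyte sums, 43146 and 27323 CPM in shCon and 73033 and 45913 CPM in shYap. Adjusted p in edgeR's quasi-likelihood test was 0.964 for Krt8 and 0.906 for Krt18.

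Cdh1 was at 5.96, 11.1, 10.3 and 33.3 CPM in shCon and at 13.2, 22.8, 7.77 and 17.2 CPM in shYap (0.01 ± 0.53 SE, adjusted p = 0.997 in edgeR's quasi-likelihood test). Its level in shCon replicate 4 was the highest of the 8 libraries. The same library had the highest Epcam (2.42 CPM), Krt19 (2.28 CPM) and Krt8 (191 CPM) of this table. Without it the log2 fold change of Cdh1 was 0.75 and that of Krt8 0.45, and neither passed (adjusted p of 0.397 and 0.590 in edgeR's quasi-likelihood test).

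Lgals4 was at 7.56, 8.78, 8.61 and 5.76 CPM in shCon. It was at 3.85, 8.94, 26.2 and 12.3 CPM in shYap, so shYap libraries lay on both sides of shCon. Its log2 fold change was 0.74 ± 0.49 (SE), and that of Krt7 was 0.71 ± 0.47 with 0.648 to 3.002 CPM in shCon and 1.67 to 3.18 CPM in shYap. Both had an adjusted p = 0.661 in edgeR's quasi-likelihood test. Epcam (0.22 ± 0.55 SE) and Krt19 (0.05 ± 0.49 SE) stayed below 2.5 CPM in all 8 libraries, and Cldn7 had 2 to 17 counts in shCon and 2 to 19 in shYap (two-sided exact permutation test of mean CPM, p = 0.486).

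The genes whose profiles were most like each one were found by the root mean square distance between standardised log2 CPM profiles, among genes with a mean of at least 5 CPM. Over the 8 libraries of shCon and shYap the gene most like Krt8 was Krt18, and the reverse, at a distance of 0.15 among 11253 genes. Next for both came Proser2 and Pex6. Over the 10 libraries of LFD and HFD, with 11394 genes, the partners were not among each other's nearest 3. Krt18 was then nearest to Cobl (0.16), Mal2 (0.16) and Myo5b (0.16), and Krt8 to Commd3 (0.18), Fuz (0.21) and Stoml2 (0.23). Cdh1 was nearest to Adgrl2 (0.14) in LFD and HFD. Sox9 was nearest to Dcbld2 (0.16), Lgals3 (0.19) and Tead4 (0.22) in shCon and shYap.

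Other genes of the epithelial programme were counted over lists. For the lists and families below, 19.4% of all genes tested were called higher in HFD and 21.6% lower. In HFD, 11 of 24 epithelial junction genes tested fell and 4 rose, with a median log2 fold change of -1.18 against -0.00176 over all genes tested. The falls included Crb3, a polarity protein (-3.34 ± 0.54 SE), and Tjp3, a tight junction scaffold (-2.52 ± 0.53 SE). The rises were the catenins Jup (0.81 ± 0.12 SE), Ctnnd1 (0.37 ± 0.07 SE) and Ctnna1 (0.29), which link cadherins to the cytoskeleton, and the claudin Cldn4 (0.90). Their adjusted p lay between 0.000764 for Jup and 0.0287 for Cldn4 in edgeR's quasi-likelihood test. The list summed to 1442 to 2155 CPM in LFD and 1432 to 1659 CPM in HFD, as catenins made up much of it.

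Of 15 epithelial regulators tested, 8 fell and 2 rose, with a median of -1.14. Those that fell included Foxa2 (-4.45 ± 0.81 SE), Esrp2 (-4.25 ± 0.83 SE) and Hnf4a (-3.96), which hepatocytes also express, and Grhl2 (-1.14 ± 0.24 SE), a factor of epithelial junction genes that was at 1.30 to 2.30 CPM in LFD and 0.503 to 1.11 CPM in HFD. The 2 that rose were Klf4 (1.77 ± 0.23 SE) and Klf5, Krüppel-like factors of the gut lining. Klf4 lay at 11.5 to 27.7 CPM in LFD and 52.9 to 67.5 CPM in HFD, and Klf5 at 4.94 to 16.7 and 16.1 to 18.9 CPM. In the same libraries the hepatocyte sums above were lower, and their part in these counts was not tested gene by gene. With the hepatocyte covariate 18 genes of the 5 lists described here were called, against 43 without it. Over all genes tested the calls also fell, to 1137 from 6710. The covariate and the diet cannot be told apart in that fit, so the drop does not show the part of hepatocyte RNA.

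Among intestinal genes 4 of 10 tested fell and 1 rose, with a median of -0.91. In either direction this is near the 41.1% called over all genes tested. Car1 (-7.04 ± 0.84 SE), a carbonic anhydrase of colon and red blood cells, Fabp2 (-4.29 ± 0.60 SE), a fatty acid carrier of enterocytes, Ceacam1 (-3.68 ± 0.67 SE), which hepatocytes also carry, and Lgr5 (-3.03 ± 0.67 SE), a stem cell receptor of crypts and of hepatocytes around central veins, were the falls. The rise was the brush border myosin Myo1a (1.06), at 1.26 CPM or less. Villin (Vil1) was at most 0.685 CPM in any LFD or HFD library.

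Cholangiocyte genes other than the keratins rose in 2 and fell in 2 of 10 tested, with a median of 0.23. These counts are near the shares over all genes tested, 19.4% higher and 21.6% lower. Spp1, osteopontin, which macrophages and tumour cells make as well, rose by 1.93 ± 0.15 (SE) on the log2 scale, from 255 to 446 CPM in LFD to 1103 to 1319 CPM in HFD. Mmp7 rose from at most 0.272 CPM in LFD to 0.604 to 1.21 CPM in HFD. Onecut1 (-4.45 ± 1.22 SE), a factor shared by bile duct and hepatocyte, was among the falls. Cftr, the chloride channel of bile ducts, was at most 0.349 CPM, and Sctr, the secretin receptor, had no row in this table. These values and those of Krt7 and Krt19 show little RNA of the genes most typical of bile ducts.

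Mesenchymal genes, 9 of 14 higher and 1 lower, had a median of 0.81. Prrx1 (1.04 ± 0.10 SE), Twist2, Twist1 (0.80 ± 0.15 SE) and vimentin (Vim, 1.01 ± 0.18 SE) rose, while N-cadherin (Cdh2, -2.68), which hepatocytes also carry, fell. Zeb1 (-0.14, adjusted p = 0.462), Zeb2 (0.12, 0.460) and Snai2 (-0.08, 0.685), repressors of Cdh1, did not pass in edgeR's quasi-likelihood test, and Snai1, another of them, rose (0.82, adjusted p = 0.0133). Fibroblast genes rose in 3 of 7 and fell in 0, with sums of 2762 to 5348 CPM in LFD and 5993 to 7942 CPM in HFD. Their part in the mesenchymal count was not tested. Leukocyte genes fell in 3 of 6, at sums of 516 to 940 and 548 to 717 CPM. Endothelial genes fell in 2 of 6, the liver sinusoid genes Clec4g and Stab2, at 86.0 to 231 and 84.7 to 115 CPM. Beside the 19.4% higher and 21.6% lower over all genes tested, these are counts in lists of 6 or 7 genes.

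**Figure D5:**
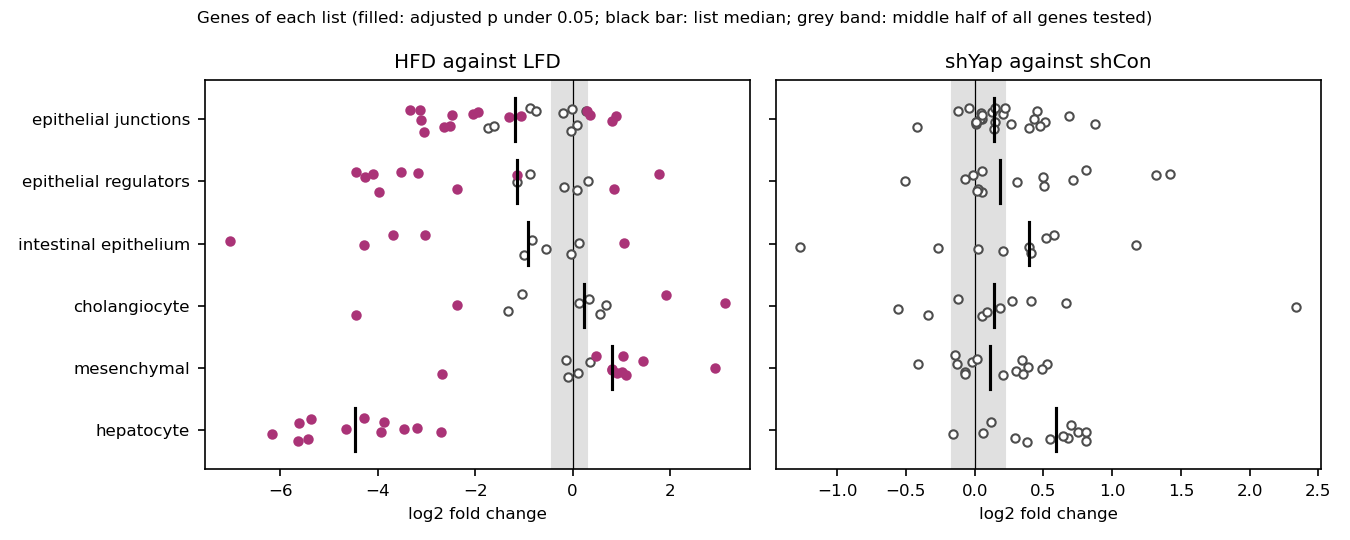
log2 fold change of each tested gene of 6 lists (rows) for HFD against LFD on the left and shYap against shCon on the right; filled points have an adjusted p under 0.05 in edgeR, black bars are list medians and the grey band spans the quartiles of all genes tested (-0.42 to 0.30 on the left). The medians of the junction, regulator and intestinal lists lie at -1.18, -1.14 and -0.91 in HFD, that of the hepatocyte list at -4.47, and no point is filled on the right.

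Within the families of the chosen genes, 3 of 8 other keratins in the LFD and HFD table could be tested. Krt14, a keratin of basal cells, rose from 0.480 ± 0.312 to 2.83 ± 0.816 CPM (2.60 ± 0.40 SE, adjusted p = 0.00108, edgeR's quasi-likelihood test). Krt80 (0.65 ± 0.26 SE) and Krt10 (0.34 ± 0.21 SE) did not pass. Of the other claudins 9 of 16 were tested, and 6 fell and 1 rose. Claudins 1 and 3, both present on hepatocytes, fell from 32.5 ± 35.3 to 3.21 ± 1.98 CPM (Cldn1) and from 47.6 ± 36.3 to 5.71 ± 5.19 CPM (Cldn3, SD, n = 5 each). Cldn14 fell from 6.91 ± 6.65 to 0.340 ± 0.225 CPM, and Cldn12 from 67.2 ± 18.9 to 42.2 ± 3.22 CPM (SD, n = 5 each).

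None of the genes in these lists or families passed in shYap against shCon in edgeR's quasi-likelihood test. An unadjusted p under 0.05 was reached by 1 of 24 junction genes, 2 of 14 regulators, 1 of 9 intestinal, 2 of 10 cholangiocyte and 2 of 14 mesenchymal genes. Over all genes tested it was reached by 1804 of 16571. DESeq2 called 1 junction gene, 1 regulator and 1 cholangiocyte gene, against 410 over all genes tested. List medians there were 0.14 for junctions, 0.18 for regulators, 0.39 for intestinal, 0.14 for cholangiocyte, 0.11 for mesenchymal and 0.59 for hepatocyte genes, against 0.03 over all genes tested. Over the junction, regulator, intestinal, cholangiocyte and mesenchymal lists the smallest adjusted p was 0.167, for Spp1, at 403 to 450 CPM in shCon and 599 to 864 CPM in shYap. Spp1 (0.67 ± 0.15 SE), like Sox9, was higher in each shYap library than in any shCon library. Groups did not overlap for 6.57% of all genes tested, 2.61% higher and 3.96% lower in shYap. Others in the lists included Msln, higher at 167 to 362 CPM in shYap against 119 to 153 CPM in shCon. Jup was lower, at 96.2 to 112 CPM in shYap against 129 to 152 CPM in shCon. Klf5 (1.32 ± 0.38 SE, adjusted p = 0.262) and Klf4 (1.42 ± 0.50 SE, adjusted p = 0.354) reached 67.8 and 149 CPM in shYap with overlapping groups. The mesothelial sum was 151 to 181 CPM in shCon and 204 to 402 CPM in shYap, and 0 of 8 of its genes passed in edgeR (1 at an unadjusted p under 0.05). Fibroblast (0 of 7), leukocyte (0 of 6) and endothelial genes (0 of 6) did not pass either, with 3, 3 and 1 at an unadjusted p under 0.05.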

How the data were processed

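The authors deposited 2 tables of estimated counts, partly fractional. STAR 2.7.3a, Partek and DESeq2 and the build GRCm38 are named, without roles, per the submitters' processing notes; the annotation, strand and read length are not given in the sources used here. Symbols were matched exactly, and GENCODE M21 gave positions, exon lengths and shared 50-base runs. Counts were rounded and each table was fitted alone in edgeR 4.0.16 (R 4.3.3). Low genes were removed by filterByExpr before TMM scaling, and the groups were compared by the robust quasi-likelihood test with Benjamini-Hochberg adjustment over all genes tested and a threshold of 0.05. Dividing a log2 fold change by the root of its F statistic gave the SE. Likeness used a prior count of 0.5 and genes of at least 5 CPM.

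The genes and the lists were chosen with earlier results of these data known. Genes named are the 10 members, up to 4 of each list and family by p, and the 3 genes nearest each member of at least 5 CPM; others, such as Hnf4a, Ctnna1, Cldn4, Klf5, Myo1a, Vil1, Cftr, Cdh2, the Snai and Zeb genes and the ratio of Krt8 to Krt18, were picked with their values in view. Alternatives were RLE, upper-quartile and no scaling, other filters, DESeq2 1.42.0, limma voom (3.58.1), a replicate block, a hepatocyte covariate, summed HFD pairs and each library left out; adding Krt8-ps to Krt8 was chosen after seeing the data. Not every gene that this rule gives is reported here. The fit was also run on simulated counts with known changes, and the outcome is not reported here. Those counts were drawn independently for each gene and library, so they lack the likeness of the closest HFD libraries.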

Additional observations from a re-analysis of the deposited data

Results flagged for a closer look

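Of 46 groups of values examined, 3 held a library whose gap to its nearest neighbour took up more of the group's range than Dixon's 95% limit. Chance alone gives about 1 such group in 20. Cldn7 in shCon replicate 4 was at 0.823 CPM, with a gap of 0.931 of the range. Krt19 in HFD replicate 5 was at 6.60 CPM, with a gap of 0.736 of the range. The ratio of Krt8 to Krt18 in shCon replicate 4 was 0.796, with a gap of 0.908 of the range.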

How the results depend on the processing

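In HFD against LFD, Sox9 passed under all 21 alternatives. The count of the 8 genes called was 2 in edgeR, 1 with upper-quartile factors, no filter, limma voom or summed HFD pairs, 3 with the hepatocyte covariate (Krt8, Krt18, Sox9), 4 in DESeq2 (Cdh1, Krt18, Lgals4, Sox9) and 1 to 3 without single libraries. Library totals with no scaling called Krt19 and Sox9, moved the median of all genes to 0.24 and gave 4076 higher and 2216 lower genes, against 3178 and 3532. The 43 calls in the 5 lists became 18 with the covariate, 27 with summed pairs and 36 to 47 without single libraries. All calls numbered 1137 with the covariate and 4233 with summed pairs, against 6710. Direction turned for Epcam with upper-quartile (0.0385) or no scaling (0.23), summed pairs (0.0237) and the covariate (1.02), and with the covariate for Cdh1 (2.05), Krt18 (2.86) and Lgals4 (0.39); the cause was not tested. Without single libraries Epcam ranged from -0.27 to 0.12 and Krt7 from -0.00589 to 0.50.

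In shYap against shCon, DESeq2 called 1 of the genes (Sox9) and 3 genes of the lists, against 0. Leaving out shCon replicate 4 gave 94 calls over all genes and 0 of these. Small changes turned without scaling for Cdh1 (-0.0410) and Krt19 (-0.00520), and with the covariate for Epcam (-0.0638), Cdh1 (-0.21), Krt8 (-0.0900) and Krt19 (-0.0424). Without single libraries the ranges were -0.15 to 0.81 for Epcam, -0.26 to 0.75 for Cdh1, -0.15 to 0.45 for Krt8, -0.0344 to 0.47 for Krt18 and -0.15 to 0.60 for Krt19.

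Deviations of libraries with the same replicate number from their group means correlated at -0.48 to 0.30 for HFD and LFD. For shYap and shCon they correlated at -0.03 to 0.16. Only for shCon replicate 3 was the library of the same number the best match. Such correlations cannot show whether the libraries were paired. With the number as a block 4929 genes were called in HFD, 1 of the 8 among them (Sox9, adjusted p = 0.0109; Cdh1 at 0.138), and 0 in shYap. Genes mostly below about 1 CPM, such as Cldn7 and Krt20, had few counts per library. The effect of depth on them was not tested.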
